A study of Mus musculus with 4 samples.

Results

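Tubulins are the building blocks of microtubules, and the 9 alpha and beta tubulin genes described here were chosen by name: the beta tubulins Tubb1, Tubb2a, Tubb4b, Tubb5 and Tubb6, and the alpha tubulins Tuba1b, Tuba1c, Tuba4a and Tuba8. All 9 were listed in both deposited tables of mouse platelet RNA, which together list 17995 genes, and every member had at least 100 reads in every library. RNA was sequenced in 4 libraries, 1 per group. The library labelled cKO came from male mice with a platelet-specific conditional knockout of HuR (the RNA-binding protein encoded by Elavl1) at 3 months, and WT came from their male wild-type littermates at 3 months. Old came from wild-type males at 24 months and Young from wild-type males at 3 months. Each library pooled the platelets of 7 mice. The driver of the knockout, its alleles and the strain are not given in the sources used here.

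Alpha and beta tubulin pair into a dimer, and dimers polymerise into the hollow microtubule. In a resting platelet a coil of microtubules, the marginal band, runs under the membrane and keeps the cell a flat disc, and in the megakaryocyte the same polymers drive the extension of proplatelets, from which platelets are released. Tubb1 encodes beta-1 tubulin, the isotype restricted to megakaryocytes and platelets, whose loss in mice and humans gives fewer and rounder platelets. Tuba4a and Tuba8 are alpha isotypes linked to platelet biogenesis, and the remaining members are made in many tissues.

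Tubulin isotypes differ most at the carboxy-terminal tail, the acidic stretch that projects from the microtubule, carries most modifications and meets associated proteins. The last 60 coding bases, stop codon included, are shown for 7 members to let the isotypes be told apart. They were read from GENCODE M21 transcripts on GRCm38 (mm10), and capitals mark bases that differ from, or have no partner in, the aligned end of Tubb2a for the beta genes and of Tuba4a for the alpha genes.
Tubb1: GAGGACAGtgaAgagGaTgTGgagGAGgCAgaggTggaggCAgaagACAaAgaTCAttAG
Tubb2a: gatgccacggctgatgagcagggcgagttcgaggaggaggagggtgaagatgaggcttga
Tubb4b: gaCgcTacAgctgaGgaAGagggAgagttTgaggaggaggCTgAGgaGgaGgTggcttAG
Tubb5: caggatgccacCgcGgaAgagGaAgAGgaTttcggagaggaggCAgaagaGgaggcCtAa
Tuba4a: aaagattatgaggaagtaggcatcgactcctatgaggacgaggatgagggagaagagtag
Tuba8: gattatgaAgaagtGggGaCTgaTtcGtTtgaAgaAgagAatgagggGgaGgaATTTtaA
Tuba1c: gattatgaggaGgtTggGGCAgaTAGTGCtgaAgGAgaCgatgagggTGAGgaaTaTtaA
These stretches lie at chr2:174457823-174457882 on the plus strand for Tubb1, chr13:34074468-34074527 on the minus strand for Tubb2a, chr2:25222308-25222367 on the minus strand for Tubb4b and chr17:35834982-35835041 on the minus strand for Tubb5. Those of the alpha genes lie at chr1:75215622-75215681 on the minus strand for Tuba4a, chr6:121226020-121226079 on the plus strand for Tuba8 and chr15:99037950-99038009 on the plus strand for Tuba1c. In Tubb1, 30 of the 60 bases are in capitals, against 17 in Tubb4b and 13 in Tubb5. Over the whole coding sequence, Tubb1 was 73.0% to 76.1% identical to the other beta members.

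How far a read can be placed on 1 member also differed. No 50-base window of the Tubb1 or Tubb6 transcript occurred in another annotated gene, and 0.115% of the windows of Tubb5, 0.181% of those of Tuba8 and 1.11% of those of Tuba4a did. The shares were 49.6% for Tubb2a, mostly with its neighbour Tubb2b, and 50.9% for Tubb4b, mostly with the pseudogene Tubb4b-ps1. They were 61.0% for Tuba1c and 73.8% for Tuba1b, each of which shares most with the other. No source used here gives the counting of reads that several genes share, so the values of Tubb2a, Tubb4b, Tuba1b and Tuba1c are less certain than the others.

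The libraries held 17702341 reads in the library labelled cKO, 17978384 in WT, 18472149 in Old and 18145612 in Young. The 14 platelet markers were all detected and took 7.14%, 7.06%, 7.63% and 7.25% of the reads of the library labelled cKO, WT, Old and Young. Elavl1, the targeted gene, had 1481 reads in the library labelled cKO and 876 in WT, a ratio of 1.66 (95% interval 1.53 to 1.81). Against Young, the other 3-month library, with 621 reads, the ratio was 2.62 (2.38 to 2.88), and 1.60% of genes had a higher one. Elavl1 was therefore not lower under the knockout label, and a count over the whole gene does not show whether an exon is missing. With 1 library per group no difference has a replicate check, and intervals cover counting error only. In pooled RNA, fewer cells of a type and less RNA per cell cannot be told apart.

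Tubb1 (chromosome 2, 174450695 to 174457882, mm10) was the most abundant member in every library. It had 25417 reads in the library labelled cKO, 49218 in WT, 105291 in Old and 50582 in Young. As RPKM (RPM, reads scaled to a common library total, divided by the deposited gene length in kilobases), its level was 1021 in the library labelled cKO, 1947 in WT, 4054 in Old and 1983 in Young. It ranked 54th, 27th, 14th and 27th among all genes by RPKM in these libraries. WT and Young lay close together, with the library labelled cKO below both and Old above both.

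The other members covered a wide span of levels. Tubb2a, a beta isotype best known from neurons, came next at 129.9 RPKM in the library labelled cKO, 287.8 in WT, 274.2 in Old and 240.1 in Young. Tuba4a was the most abundant alpha gene, at 94.3 RPKM in the library labelled cKO, 110.8 in WT, 156.2 in Old and 107.7 in Young. Tubb4b, a broadly made beta isotype found in cilia among other places, stood at 53.5 RPKM in the library labelled cKO, 98.5 in WT, 170.6 in Old and 97.4 in Young. In Old alone, Tubb4b stood above Tuba4a. Tubb5, Tuba8, Tuba1c, Tuba1b and Tubb6 lay between 5.60 and 30.4 RPKM in all 4 libraries. Within that lower group the intervals of some neighbours overlapped: Tuba8 and Tuba1c in WT and in Young, Tuba1b and Tuba8 in Old, and Tuba1b with Tuba1c and Tuba1c with Tubb6 in the library labelled cKO.

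**Figure D1:**
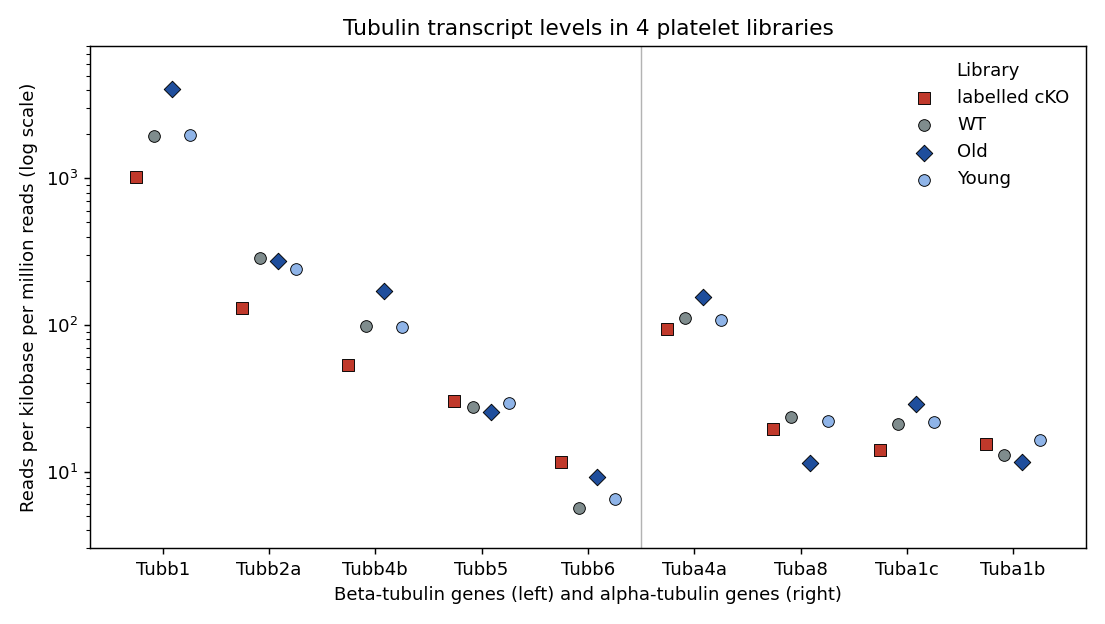
Level of each tubulin gene (RPKM, log axis) in the 4 libraries, 1 point per gene and library. Tubb1 stands above all other members in every library, at 1021 RPKM in the library labelled cKO, 1947 in WT, 4054 in Old and 1983 in Young.

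For the library labelled cKO against WT, the question was which platelet RNAs differ when HuR is targeted. Ratios are of reads over library sizes scaled by the trimmed mean of M values. The words rose and fell are kept for genes with 100 or more reads in the richer library whose whole 95% interval lay 2-fold or further from equality. By that rule 1 of 9 members fell and 0 rose, beside 1.71% of 6273 genes that fell and 2.52% that rose. Tubb2a (chromosome 13, 34074274 to 34078007) fell, with 3701 reads in the library labelled cKO and 8329 in WT, a 2.29-fold lower level (2.20 to 2.38). Summed with its near copy Tubb2b, it had 4296 reads in the library labelled cKO and 9330 in WT, a ratio of 0.452 (0.436 to 0.469). Against Young, the other 3-month library, Tubb2a had a ratio of 0.579 (0.556 to 0.602) and did not pass the rule. There 0 of 9 members passed, beside 2.86% of 6428 genes.

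Tubb1 (isotype beta-1) stopped just short of the rule: with a ratio of 0.507 (0.4997 to 0.515), it was 1.97-fold lower (1.94 to 2.00), and 3.83% of genes had a lower ratio. Tubb4b had 1978 reads in the library labelled cKO and 3699 in WT, a ratio of 0.525 (0.497 to 0.555). Tuba1c had a ratio of 0.645 (0.579 to 0.718). The other alpha isotypes of platelets were nearer to 1, with Tuba4a at 0.823 (0.796 to 0.852) and Tuba8 at 0.804 (0.731 to 0.885). Tubb6, an isotype that destabilises microtubules when overproduced in cultured cells, went the other way, with 364 reads in the library labelled cKO and 177 in WT, a ratio of 2.02 (1.68 to 2.43). Tubb5 at 1.07 (1.00 to 1.15) and Tuba1b at 1.15 (1.01 to 1.31) were the nearest to 1. At a 1.5-fold bound, 3 members were lower (Tubb1, Tubb2a and Tubb4b, beside 6.28% of genes) and 1 was higher (Tubb6, beside 7.24%).

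Summed, the 5 beta members had 33248 reads in the library labelled cKO and 63060 in WT, a ratio of 0.518 (0.511 to 0.525), and 0.556 (0.541 to 0.572) with Tubb1 left out. The 4 alpha members had 8042 reads in the library labelled cKO and 9635 in WT, a ratio of 0.820 (0.796 to 0.845). The median log2 ratio of the 9 members was -0.31, beside -0.01 for all genes. Other cells' markers differed too: the 14 erythroid markers took 1.62% of reads in the library labelled cKO and 0.834% in WT. Of the 14, 10 rose and 1 fell (Hba-a2, at 0.437). Of the 13 with 20 or more reads in the 2 libraries together, 12 had a ratio above 1. The 12 markers of dividing cells summed to 68.5 RPM in the library labelled cKO and 29.7 in WT. The monocyte and neutrophil sums were lower in the library labelled cKO, with ratios of 0.659 and 0.580 to WT. Lyz2 alone held 40825 of the 41161 monocyte marker reads in the library labelled cKO and 60816 of the 61327 in WT. The part of these cells in the tubulin ratios was not tested. The platelet marker sum had a ratio of 0.978, with single markers between 0.430 (F2rl2) and 1.40 (Itga2b). The median log2 ratio of the platelet list was -0.11.

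Tuba1a, an alpha isotype of neurons that is not among the 9, fell in the library labelled cKO, with 785 reads there and 2110 in WT, a 2.74-fold lower level (2.52 to 2.97). Against Young its ratio was 0.504 (0.462 to 0.548), which did not pass. Because it shares sequence with Tuba1b and Tuba1c, the 3 were also summed: 1864 reads in the library labelled cKO and 3414 in WT gave a ratio of 0.536 (0.507 to 0.568). In the authors' deposited table, the adjusted p-value was 0.0238 for Tuba1a, 0.0770 for Tubb2a and 0.185 for Tubb1, and 0 of 9 members were under 0.05, beside 3.79% of 16467 genes. Each such p-value compares 2 libraries. The submitters' processing notes name DESeq2 without saying what it was used for.

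**Figure D2:**
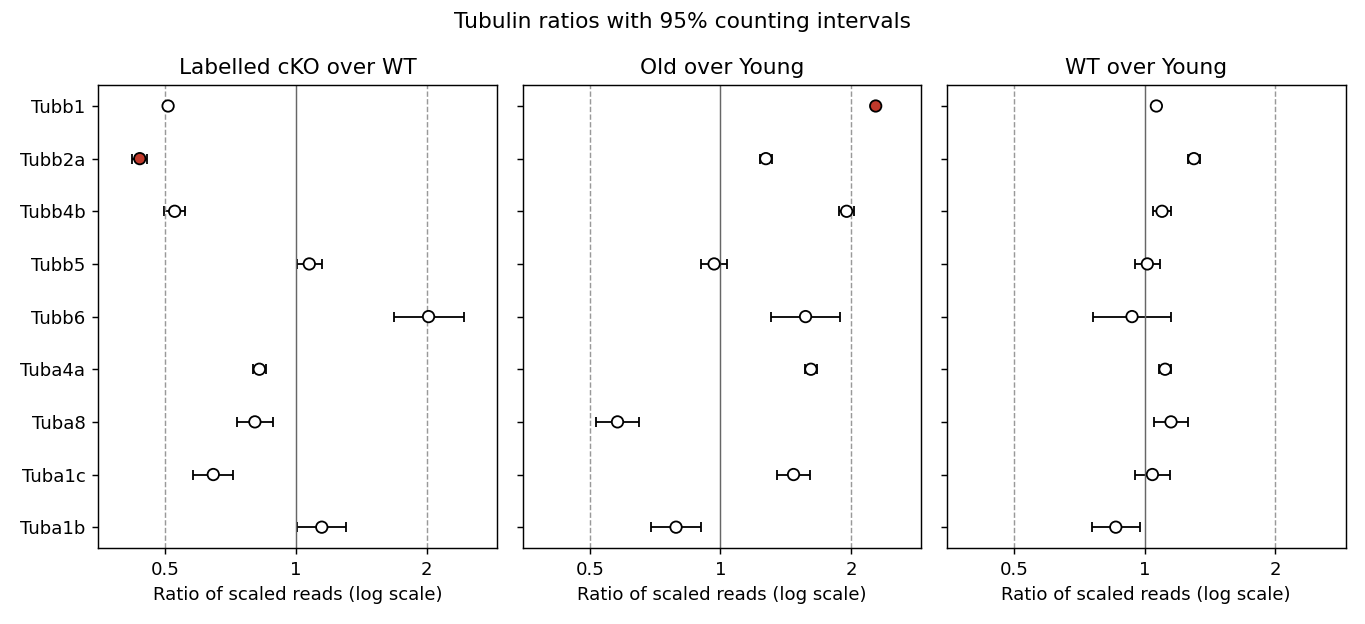
Ratio of each tubulin gene (log axis) between pairs of libraries: the library labelled cKO over WT, Old over Young, and WT over Young, with 95% counting intervals as bars, filled points for genes that passed the 2-fold rule and dashed lines at ratios of 0.5 and 2. Tubb1 lies at 0.507, 2.28 and 1.06 in these comparisons.

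Old against Young asked which platelet RNAs differ with age. By the same rule 1 of 9 members rose and 0 fell, beside 4.26% of 6519 genes that rose and 4.3% that fell. The member that rose was Tubb1, with 105291 reads in Old and 50582 in Young, a ratio of 2.28 (2.26 to 2.30), and 4.88% of genes had a higher one. Against WT, the other 3-month wild-type library, the ratio of Old was 2.14 (2.12 to 2.17) and passed the rule as well, beside 4.54% of 6328 genes. Scaling by total reads shifts all genes by -0.16 on the log2 scale in Old over Young, and Tubb1 then had a ratio of 2.04. In the authors' deposited table, Tubb1 had a log2 fold change of 1.19 for Old over Young and an adjusted p-value of 0.0380. It was 1 of 9 members under 0.05 in the authors' deposited table for that comparison, beside 12.4% of 16180 genes.

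Tubb4b followed, with 6581 reads in Old and 3689 in Young, a ratio of 1.95 (1.88 to 2.03). Tuba4a had 10678 reads in Old and 7234 in Young, a ratio of 1.62 (1.57 to 1.67). Tubb6 at 1.57 (1.31 to 1.89), Tuba1c at 1.47 (1.35 to 1.61) and Tubb2a at 1.27 (1.23 to 1.31) were also above 1. With WT in place of Young, Tubb2a was at 0.981 (0.951 to 1.01). Tuba8 (chromosome 6, 121210696 to 121226854) went the other way, with 482 reads in Old and 911 in Young, a 1.73-fold lower level (1.54 to 1.93) that did not pass the rule. Tuba1b was at 0.790 (0.693 to 0.900), and Tubb5 at 0.967 (0.903 to 1.04). The 2 alpha isotypes linked to platelet biogenesis, Tuba4a and Tuba8, thus lay on opposite sides of 1. At a 1.5-fold bound, 3 members were higher (Tubb1, Tubb4b and Tuba4a, beside 10.4% of genes) and 1 was lower (Tuba8, beside 12.9%). Tuba4a did not hold that bound with WT in place of Young, at 1.45 (1.41 to 1.495). Nor did it against Young when scaled by total reads, at 1.45 (1.41 to 1.49).

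Summed, the 5 beta members had 121882 reads in Old and 63258 in Young, a ratio of 2.11 (2.09 to 2.13), and 1.43 (1.40 to 1.47) with Tubb1 left out. The 4 alpha members had 12787 reads in Old and 9612 in Young, a ratio of 1.46 (1.42 to 1.496). The median log2 ratio of the 9 members was 0.56, beside -0.06 for all genes. That of the 14 platelet markers was 0.54, close to the members' median, and 11 of the 14 had a ratio above 1. With WT in place of Young, the medians were 0.50 for the members and 0.34 for the platelet markers. In Old over Young, platelet markers summed to a ratio of 1.17, with single markers between 0.832 (Nrgn) and 1.81 (Gp5). Tubb1 and Tubb4b thus lay above that range. With WT in place of Young, single markers lay between 0.591 (Ppbp) and 2.05 (Itga2b). There Tubb4b, at 1.78, lay inside the range and Tubb1, at 2.14, just above it. Neutrophil markers summed to 836 RPM in Old and 31.5 in Young. Of the 12 listed, 10 rose in Old, and Elane was at 0 or unlisted in both libraries. B cell markers summed to 75.4 RPM in Old and 273.7 in Young. The 14 erythroid markers took 1.15% of reads in Old and 2.17% in Young, a ratio of 0.592. Of them 1 rose (Sptb), 1 fell (Hbb-bt) and 7 had a ratio above 1. Of 9 monocyte markers, 6 had a ratio above 1, Cd14, Csf1r and Ccr2 among them, and 3 rose, while the sum of the list had a ratio of 0.813. Lyz2, which held 60816 of the 61327 reads of that list in WT, was at 0.802. The part of these cells in the tubulin ratios was not tested.

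WT against Young set side by side 2 wild-type pools of 3 months, and shares a library with each comparison above. The pools differed in other cells' markers: the erythroid list took 0.834% of reads in WT and 2.17% in Young. Of its 14 markers 5 fell in WT, and 1 had a ratio above 1. Of 8 listed neutrophil markers 2 rose in WT, and 7 had a ratio above 1. None of the 9 members passed the rule, beside 1% of 6373 genes in either direction. Ratios ran from 0.857 (0.755 to 0.973) for Tuba1b to 1.30 (1.26 to 1.34) for Tubb2a. Tubb1 was at 1.06 (1.05 to 1.08), Tubb4b at 1.10 (1.05 to 1.15), Tuba4a at 1.11 (1.08 to 1.15) and Tuba8 at 1.15 (1.05 to 1.26). The median log2 ratio of the members was 0.09. Under scaling by total reads, which shifts all genes by -0.11 on the log2 scale here, Tubb1 moved to 0.982, Tubb5 to 0.936 and Tuba1c to 0.962, each on the other side of 1.

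The mix of isotypes was compared within each library, per kilobase, which does not depend on library scaling. Tubb1 made up 81.9% (81.5 to 82.3) of the 5 beta members in the library labelled cKO and 82.3% (82.0 to 82.6) in WT, with overlapping intervals. It made up 89.4% (89.3 to 89.6) in Old and 84.2% (83.9 to 84.4) in Young, and these intervals did not overlap. The intervals of WT and Young, wild-type pools of the same age, did not overlap either. Nor did those of the library labelled cKO and Young. Without division by length, Tubb1 made up 76.4% (76.0 to 76.9) in the library labelled cKO and 78.0% (77.7 to 78.4) in WT. Those intervals did not overlap, unlike the ones per kilobase. Non-overlap was therefore not particular to the comparison by age, although Old had the highest share. Tubb2a took 10.4% in the library labelled cKO and 12.2% in WT, and 6.05% in Old and 10.2% in Young. Tubb5 took 2.44% in the library labelled cKO and 1.16% in WT, and 0.560% in Old and 1.24% in Young. Tubb6 was the rarest beta member everywhere, at 0.939% in the library labelled cKO, 0.237% in WT, 0.202% in Old and 0.276% in Young.

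Among the 4 alpha members Tuba4a made up 65.8% (64.6 to 67.0) in the library labelled cKO and 65.8% (64.7 to 66.9) in WT. It made up 74.97% (74.1 to 75.8) in Old and 64.0% (62.97 to 65.1) in Young. Tuba8 held 13.7% in the library labelled cKO and 14.0% in WT, but 5.53% in Old and 13.2% in Young. Tuba4a and Tuba8 together stayed between 77.2% and 80.5% in all 4 libraries. With Tuba1a counted among the alpha genes, that joint share was 67.8% in the library labelled cKO, 57.5% in WT, 59.2% in Old and 58.9% in Young. The summed level of the beta members per alpha member level was 8.70 in the library labelled cKO and 14.1 in WT, and 21.8 in Old and 14.0 in Young. Its size depended on the settings. Over all genes of each family it was 7.51 in the library labelled cKO, 10.2 in WT, 16.1 in Old and 10.8 in Young. With GENCODE transcript lengths it was 7.25, 11.7, 17.6 and 11.6 in the same order.

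**Figure D3:**
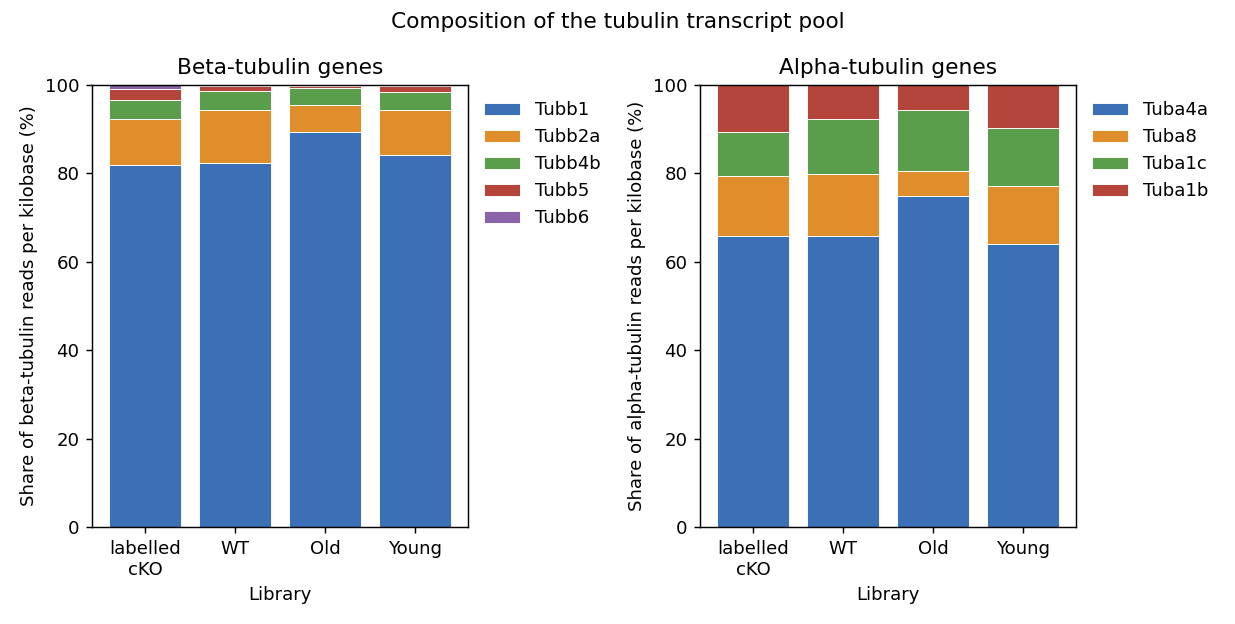
Share of each isotype (percent, per kilobase) among the 5 beta members and among the 4 alpha members in each library. Tubb1 takes 81.9% of beta in the library labelled cKO, 82.3% in WT, 89.4% in Old and 84.2% in Young, and Tuba8 takes 5.53% of alpha in Old against 13.2% in Young.

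Tubb1 and Tubb4b were both below 1/1.5 in the library labelled cKO over WT and above 1.5 in Old over Young. That pattern held for 2 of 9 members and for 138 of 5986 genes, or 2.31%. The comparisons share no library. The reverse pattern held for 0 members and for 2.17% of genes. Over the 4 libraries the genes nearest to Tubb1, by Euclidean distance between log2 RPM centred on each gene's mean, were Tmbim1 (0.21), Atp2c1 (0.22), Tubb4b (0.24), Itga2 (0.25) and F10 (0.27), among 4702 protein-coding genes. Of those genes 0.915% lay within 0.5 of Tubb1. Nearest to Tuba8 were Tes, Fam49b and Spa17, and 18.1% of genes lay within 0.5 of it.

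**Figure D4:**
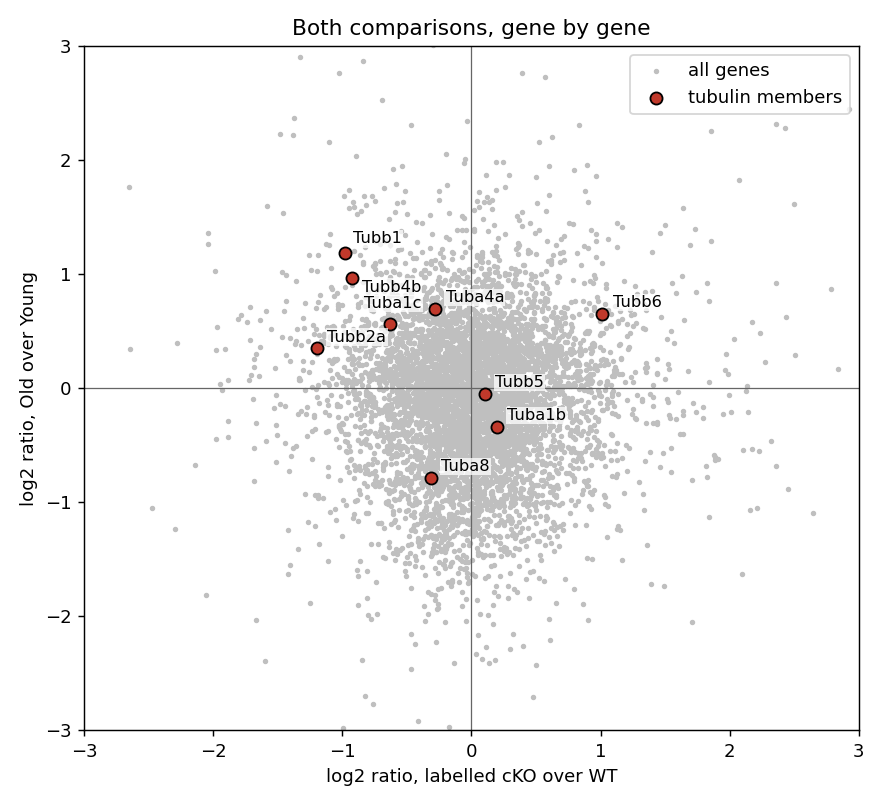
Log2 ratio of Old over Young against log2 ratio of the library labelled cKO over WT for 5985 genes (grey, 22 of them outside the axis limits of 3) and the tubulin members (named). Tubb1, at -0.98 in the library labelled cKO over WT and 1.19 in Old over Young, and Tubb4b lie low on the axis of the library labelled cKO over WT and high on that of Old over Young.

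The genes that fold, modify and organise tubulin were taken from lists, and only genes with 100 or more reads in the richer library could pass the rule. Over all genes that deep, 1.71% fell and 2.52% rose in the library labelled cKO over WT. In Old over Young 4.3% fell and 4.26% rose. Counts of 0 or 1 in lists this short are to be read beside those shares. Of 21 folding genes (tubulin cofactors, prefoldin and the CCT chaperonin, which bring tubulin to its assembled form), 0 rose and 0 fell in either comparison, with 15 deep enough to pass in the library labelled cKO over WT and 16 in Old over Young. Their median log2 ratio was -0.15 in the library labelled cKO over WT and -0.25 in Old over Young. Tbcb, a cofactor that binds alpha tubulin, had a ratio of 0.459 in the library labelled cKO over WT, and Tbca, which binds beta tubulin, had 0.464. Against Young, Tbca was at 0.697 (0.558 to 0.868). Tbcb had 89 reads in Young, nearer to the 71 in the library labelled cKO than to the 152 in WT. In Old over Young the lowest ratios among folding genes with 100 or more reads were those of chaperonin subunits, with Cct3 at 0.505 (174 reads in Old and 377 in Young), Tcp1 at 0.563 and Cct4 at 0.571.

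Of 18 listed enzymes that modify tubulin, 8 of them deep enough, Ttll7, a polyglutamylase that acts on beta tubulin, fell in the library labelled cKO, with 89 reads there and 242 in WT, and none rose. Against Young, Ttll7 had a ratio of 0.467 (0.360 to 0.601) and did not pass. In Old over Young 0 of 16 passed the rule, with 8 deep enough. There Ttll7 had a ratio of 2.02 and Agtpbp1, a deglutamylase, 0.403. Of 22 microtubule-associated and plus-end proteins, 14 of them deep enough, Map7d1 rose in the library labelled cKO, with 2990 reads there and 1124 in WT, a ratio of 2.61. Against Young, which had 2014 reads, Map7d1 was at 1.63 (1.54 to 1.72) and did not pass. Camsap1, which caps minus ends, and Map7, which recruits kinesin, were next, at 2.12 (1.72 to 2.63) and 2.03 (1.84 to 2.24). None of 21, 14 of them deep enough, passed in Old over Young, where Map1a had a ratio of 2.15 (1.83 to 2.53), against 1.36 (1.17 to 1.57) for Old over WT, and Clasp1, a plus-end protein, 0.526 (0.421 to 0.655).

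Of 13 nucleation genes, 6 of them deep enough, 0 passed in the library labelled cKO over WT, where Tubgcp6 had 1.90 (1.46 to 2.48) and Pcnt 1.87 (1.46 to 2.42). Against Young, Tubgcp6 was at 0.961 (0.778 to 1.19) and Pcnt at 1.00 (0.815 to 1.23), WT being low for both, at 0.496 and 0.522 of Young. Of 12 in Old over Young, 7 of them deep enough, 1 fell: Tubgcp2, a subunit of the gamma-tubulin complex that seeds microtubules, had 10 reads in Old and 109 in Young, a 9.95-fold lower level (5.21 to 21.3). Tubgcp3 of the same complex had a ratio of 0.396 (0.266 to 0.579) and Tubgcp6 of 0.480 (0.367 to 0.622), while Tubgcp4 was at 1.67 (1.40 to 1.997). WT was also below Young for Tubgcp2 (0.571) and Tubgcp3 (0.604). For Tubgcp4, WT had 311 reads, near the 322 in Old and above the 211 in Young. In Old over WT 0 of 12 nucleation genes passed, where 4 were deep enough and Tubgcp2, with 10 reads in Old and 57 in WT, was not. Among all genes, 4.54% of 6328 rose in Old over WT, and the share that fell is not given here. The median log2 ratio of that list was -0.59 in Old over Young, beside -0.06 for all genes. It was -0.27 in Old over WT and -0.39 in WT over Young. Of the 5 listed severing genes, 2 were deep enough to pass in each comparison, and neither did.

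**Figure D5:**
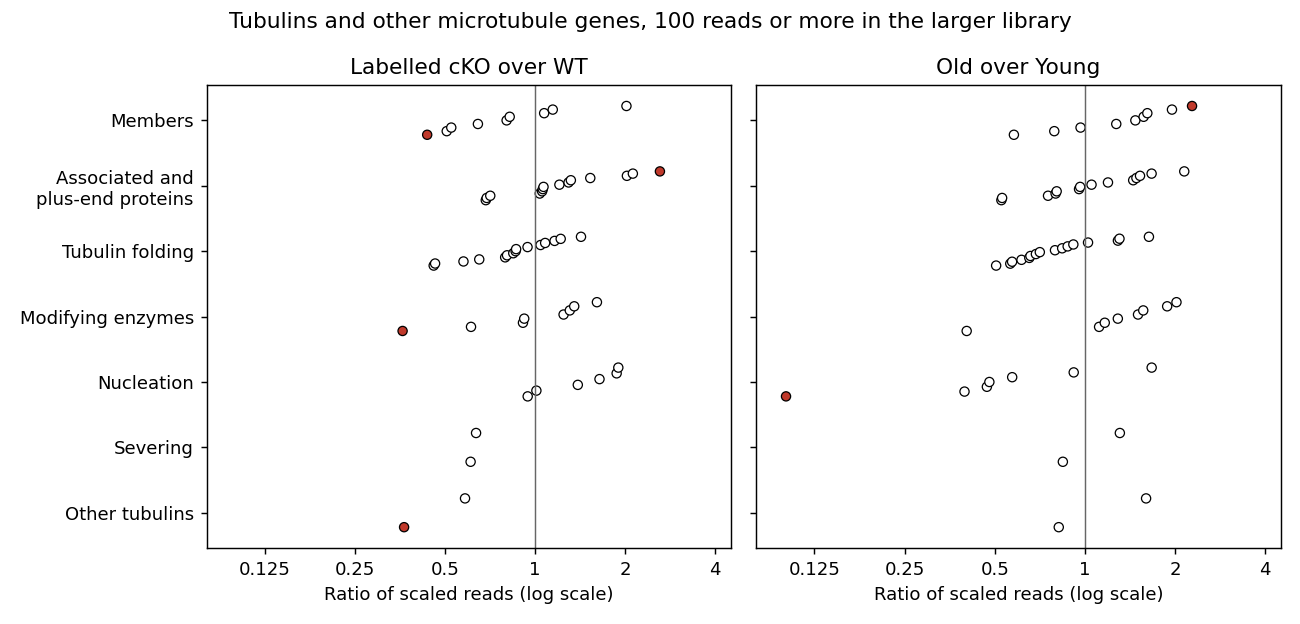
Ratio (log axis) of the library labelled cKO to WT and of Old to Young for the members and each list, 1 point per gene with 100 or more reads in the larger library, filled where it passed the 2-fold rule. Tubb2a, Tuba1a, Ttll7 and Map7d1 passed the rule between the library labelled cKO and WT, and Tubb1 and Tubgcp2 between Old and Young.

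The ends of the transcripts were read as well, because HuR binds AU-rich stretches. The letters ATTTA occurred in the 3′ untranslated region of Tubb5 at 2 places and of Tuba8 at 1, and in 0 of the other members. Of annotated 3′ untranslated regions within 20% of their lengths, 76.9% hold it for Tubb5 and 64.1% for Tuba8. The annotated Tubb1 transcript ends at its stop codon, so this search says nothing of its 3′ end. The sites are shown with 10 bases on either side and the motif in capitals.
Tubb5 site 1: agtcagggccATTTAgaatccacct
Tubb5 site 2: tattatctccATTTAtatcctccca
Tuba8 site: atgaagtataATTTAgacaccagca
Neither gene passed the 2-fold rule in any comparison above.

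Promoters were searched in the 250 bases before the gene start (RefSeq, GRCm38.p6), where 8 of the 9 members matched, the missing entry being Tubb6. The letters bound by GATA factors of megakaryocytes (AGATAA and TGATAA, as well as AGATAG and also TGATAG, on both strands) occurred in 26.5% of 32851 promoters, once in Tubb4b, at 2 places in Tubb5 and in 0 of the other matched members. The core letters of NF-E2 and AP-1 sites, which read TGAGTCA on one strand and TGACTCA on the other, occurred in 4.46% of promoters and in 0 of the 8 members. A match is a description of letters and no more.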

How the data were processed

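Platelet RNA was measured in 4 libraries, 1 per group, each a pool of 7 mice. The submitters' processing notes name build mm10, DESeq2 1.20.0, featureCounts 1.5.0-p3, HISAT2 2.0.5 and CASAVA, without role or order. The authors deposited 2 tables, each holding a signal per gene that the values show to be reads scaled within that table, plus, per the file headers, a log2 fold change and a p-value with its adjusted value. Whole reads were recovered by dividing by each library's step (tolerance 0.02). A further 4 per-sample columns were not used.

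TMM scaling (edgeR 4.0.16, R 4.3.3) was computed for each pair; pairs across tables used the 14652 genes in both. Ratios have exact Clopper-Pearson 95% intervals, shares have Wilson intervals, and no test across replicates was possible with 1 library per group. The method was tested on simulated reads that held counting error only, so that test does not cover differences between pools. Named genes are the 9 members, Elavl1, list genes that passed the rule with up to 3 more per list, copies of members, and the 5 and 3 genes nearest to Tubb1 and Tuba8. Members and lists were chosen with earlier results of these data known. Coding sequences were used where protein sequences had been planned; transcripts are GENCODE M21. One sequence is not reported here.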

Additional observations from a re-analysis of the deposited data

How the results depend on the processing

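At a 1.5-fold bound 4 members passed in the library labelled cKO over WT and 4 in Old over Young, with the shares of all genes given above. With Young in place of WT, 0 passed against the library labelled cKO, beside 2.86% of 6428 genes. At a 4-fold bound 0 passed in either comparison. No share over all genes was taken at the 4-fold bound, so that count is no result about the members. For the library labelled cKO against WT, Tubb1 had a ratio of 0.524 by total reads, 0.516 by the median of ratios and 0.551 against Young. That of Old over Young was 2.04 by total reads, 2.33 by the median of ratios and 2.14 against WT. The Tubb1 share of beta tubulin, in the library labelled cKO, WT, Old and Young, was 76.4%, 78.0%, 86.4% and 80.0% without division by length, 80.95%, 81.4%, 89.1% and 83.4% over all beta genes, and 80.4%, 81.0%, 88.3% and 82.8% with GENCODE lengths. The joint share of Tuba4a and Tuba8 was 86.6%, 86.5%, 87.3% and 84.7% without division by length. It was 67.8%, 57.5%, 59.2% and 58.9% over all alpha genes, and 81.3%, 81.4%, 82.4% and 79.1% with GENCODE lengths. All uses of GENCODE lengths, the beta to alpha ratios and the scalings of WT over Young were chosen after seeing the data. For the ratios of the other 8 members, all 88 alternatives were changes of library scaling. Of these, 79 stayed within the counting interval, 9 moved and 0 changed a call at the 2-fold bound. The authors' own scaling, and TMM with globin, immunoglobulin and neutrophil marker genes left out, nearly equal the main scaling. They could therefore hardly move a ratio. A swap of WT for Young was not among the 88, and there Tubb2a, at 0.579, lost its call. The cause of these shifts was not tested. No paired analysis was possible because each group has 1 library.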
